A study of Arabidopsis thaliana with 42 samples.

Results

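Described here are 6 loci of the 25069 in the deposited RNA-seq table, most of them genes known for being controlled by DNA methylation: SDC (AT2G17690, chromosome 2), FWA (AT4G25530, chromosome 4), QQS (AT3G30720, chromosome 3), RSU1 (AT3G48130, chromosome 3), AT3G48140 (chromosome 3) and PAI1 (AT1G07780, chromosome 1). They were selected from a list of loci, with their measured levels in these same libraries already known, so their differences between genotypes are given as descriptions with no p-value. All 6 were in the table and all 6 passed the filter on low counts, as 24839 loci did. RSU1 passed it only through the groups where it was high, as given below. The list called AT3G48140 by the name BONSAI, but RefSeq gives the symbol BNS to AT1G73177 on chromosome 1 and no name to AT3G48140. AT3G48140 is therefore called by its identifier, and AT1G73177 is described with the other methylation-controlled genes.

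Of the 42 Arabidopsis thaliana samples of the series, which include plants with intact DDM1 in its other assays, 12 are RNA libraries, all of mutants of the chromatin remodeller DDM1, alone or with a further mutation. The RNA groups were ddm1nrpd1, ddm1nrpe1 (ddm1npre1 in the sample labels), ddm1cmt2 and ddm1, with 3 libraries each. All 4 groups carried the ddm1 mutation and were sampled as 2-week-old whole seedlings, grown on agar medium at 22 °C after 7 days of cold, with 16 h light and 8 h dark a day. NRPD1 is the catalytic subunit of the plant RNA polymerase IV and NRPE1 that of polymerase V, and CMT2 is a chromomethylase. The labels of the RNA libraries give neither the alleles nor the strain background nor the number of seedlings in a library, although genomic DNA samples of the series name the allele ddm1-1 and the strain Col-0. Wild-type RNA was not analysed here, so the silenced level of each gene in wild-type seedlings is not known and every difference stands against ddm1.

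In plants, cytosines are methylated in CG and in other sequence contexts, and methylation of repeats in or beside a promoter can keep a gene silent. In RNA-directed DNA methylation (RdDM), polymerase IV makes the precursors of small RNAs and polymerase V makes the scaffold transcripts to which these small RNAs guide a methyltransferase, whereas CMT2 methylates sites outside CG independently of small RNAs. DDM1 gives methyltransferases access to nucleosomal DNA. SDC and FWA are textbook targets of repeat-dependent silencing, PAI genes are known for methylation between their duplicated copies, and QQS is known for natural methylation variants of its promoter.

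Libraries held 7.84 to 24.8 M counts in total, and no 2 replicates looked like 1 library deposited again, with a chi-square over its degrees of freedom of 3.77 to 24.1 for each pair. Nothing in the labels tells separate cultures from technical repeats, so each p-value reflects just the spread between samples, which may be technical. Levels are given as CPM, counts scaled to a common library size, after scaling between libraries by the trimmed mean of M-values (TMM). Plastid loci took 0.164 to 0.263% of counts in ddm1nrpd1, 0.124 to 0.309% in ddm1nrpe1, 0.779 to 0.924% in ddm1cmt2 and 1.57 to 1.97% in ddm1. The summed level of 5 root markers, all 5 in the table, was 25.9 to 36.8 CPM in ddm1nrpd1, 32.7 to 36.7 in ddm1nrpe1, 71.7 to 96.0 in ddm1cmt2 and 74.0 to 97.3 in ddm1. Of these, 4 were called lower in each polymerase mutant. EXPA7, a root hair expansin, was close to 0 in ddm1nrpd1 at 0.0343 CPM, against 4.92 CPM in ddm1nrpe1 and 9.90 CPM in ddm1. MYB36 was not called in either, with 2.99 CPM in ddm1nrpd1, 3.79 in ddm1nrpe1 and 3.86 in ddm1. The 4 leaf markers summed to 24285 to 27679 CPM in ddm1nrpd1, 22993 to 29724 in ddm1nrpe1, 39512 to 44586 in ddm1cmt2 and 28713 to 31217 in ddm1, and 4 seed markers, 0 of which are listed, were not used here. The low plastid and root values move with the polymerase mutants, and their part in the results was not tested. In whole seedlings, fewer cells of a type and less RNA per cell cannot be told apart.

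Of the mutated genes, NRPD1 (NRPD1A in the annotation) averaged 14.1 ± 0.73 CPM in ddm1nrpd1 and 5.74 ± 1.27 CPM in ddm1 (SD, n = 3 each). NRPE1 (NRPD1B) averaged 58.7 ± 5.65 CPM in ddm1nrpe1 and 13.1 ± 1.079 CPM in ddm1. These transcripts were higher in the libraries labelled as their mutants, with adjusted p = 7.0e-05 and 2.2e-08 by edgeR's quasi-likelihood test. CMT2 averaged 26.8 ± 1.079 CPM in ddm1cmt2 and 31.8 ± 2.99 CPM in ddm1, which did not pass the test (adjusted p = 0.104). The labels do not place any lesion within its gene, so these levels over the whole gene do not check the labels.

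SDC transcript was abundant in both polymerase mutants and low in ddm1cmt2 and in ddm1. Values per library follow the order of the replicate numbers. SDC, an F-box gene with tandem repeats in its promoter that RdDM silences, had 408, 530 and 568 CPM in ddm1nrpd1, 509, 595 and 734 CPM in ddm1nrpe1, 17.4, 28.6 and 28.8 CPM in ddm1cmt2 and 23.6, 23.8 and 26.1 CPM in ddm1. Every polymerase mutant library lay far above every other library, and the ddm1cmt2 libraries lay around the ddm1 libraries. The means were 502 ± 83.7 CPM in ddm1nrpd1, 613 ± 114 in ddm1nrpe1, 24.9 ± 6.54 in ddm1cmt2 and 24.5 ± 1.35 in ddm1 (SD, n = 3 each). Fitted log2 fold changes against ddm1 were 4.35 ± 0.21 in ddm1nrpd1 (SE), or 20.5-fold, 4.64 ± 0.21 in ddm1nrpe1, or 25.0-fold, and 0.03 ± 0.20 in ddm1cmt2. The polymerase mutants themselves overlapped, with a fitted difference of -0.29 ± 0.18 for ddm1nrpd1 minus ddm1nrpe1. With any 1 library left out, the change stayed between 4.26 and 4.48 in ddm1nrpd1 and between 4.49 and 4.76 in ddm1nrpe1.

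**Figure D1:**
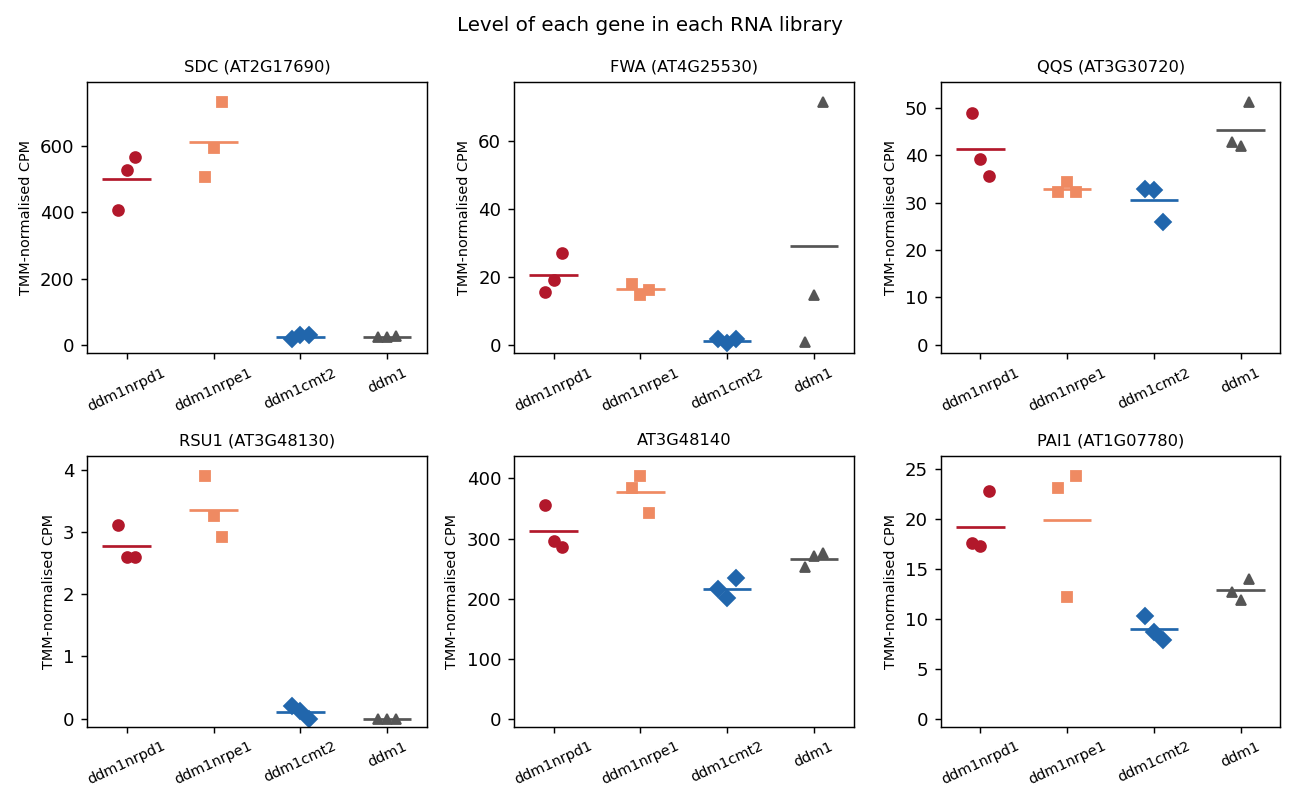
Level of each of the 6 loci in TMM-normalised CPM (vertical axes, linear, each with its own scale) in the 12 RNA libraries. Points are single libraries and lines are means of 3. SDC and RSU1 are high in ddm1nrpd1 and ddm1nrpe1 and low in ddm1cmt2 and ddm1, the 3 ddm1 libraries of FWA spread from 0.988 to 71.5 CPM, and QQS, AT3G48140 and PAI1 differ by smaller amounts.

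FWA did not follow SDC, and its values within ddm1 were spread over a wide range. FWA, a homeodomain transcription factor of the class IV HD-ZIP family whose ectopic expression delays flowering, is silenced in wild-type plants outside the endosperm through methylated repeats at its start. It had 15.6, 19.1 and 27.0 CPM in ddm1nrpd1, 18.0, 14.7 and 16.3 CPM in ddm1nrpe1, 1.72, 0.426 and 1.64 CPM in ddm1cmt2 and 0.988, 14.7 and 71.5 CPM in ddm1. The polymerase mutants held similar, intermediate levels in every library, the ddm1cmt2 libraries were all low, and ddm1 had 1 low, 1 intermediate and 1 high library. The ddm1 values rested on 9, 119 and 744 counts, a 72.4-fold range. By the standard deviation of log2 CPM within ddm1 (3.10), FWA was the 10th most variable of 23072 loci with a mean of at least 1 CPM in that group, where the median locus had 0.16. This ranking was chosen after the values were seen. Within ddm1nrpd1 and ddm1nrpe1 the same measure was 0.40 and 0.15, against 1.10 in ddm1cmt2 (17, 7 and 18 counts).

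The differences of FWA from ddm1 carried large errors. The fitted log2 fold change was -0.53 ± 0.89 in ddm1nrpd1, -0.86 ± 0.90 in ddm1nrpe1 and -4.67 ± 1.30 in ddm1cmt2, and in each comparison the groups overlapped. Without ddm1 replicate 3 the values became 1.43, 1.07 and -2.74, so that the sign turned in both polymerase mutants. That library had a root marker sum of 74.0 CPM, against 91.2 and 97.3 in the other ddm1 libraries, and a plastid share of 1.97%, against 1.57 and 1.71%. The part of either in the FWA level was not tested. Set against ddm1cmt2, FWA was higher in every library of both polymerase mutants, by 4.15 ± 1.30 in ddm1nrpd1 and 3.82 ± 1.32 in ddm1nrpe1 on the log2 scale.

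QQS, a gene found only in Arabidopsis thaliana that affects the starch and protein content of leaves, was lower in ddm1nrpe1 and ddm1cmt2 than in ddm1, by modest amounts. It had 48.9, 39.2 and 35.6 CPM in ddm1nrpd1, 32.3, 34.2 and 32.1 CPM in ddm1nrpe1, 32.8, 32.7 and 25.9 CPM in ddm1cmt2 and 42.7, 42.0 and 51.2 CPM in ddm1. All ddm1nrpe1 and ddm1cmt2 libraries lay below the lowest ddm1 library, whereas ddm1nrpd1 overlapped with ddm1. The log2 fold changes were -0.14 ± 0.13 in ddm1nrpd1, -0.46 ± 0.13 in ddm1nrpe1 and -0.57 ± 0.13 in ddm1cmt2. Means ran in the order ddm1cmt2 (30.5 ± 3.95 CPM), ddm1nrpe1 (32.9 ± 1.17), ddm1nrpd1 (41.2 ± 6.90) and ddm1 (45.3 ± 5.15), and of neighbours in this order ddm1cmt2 and ddm1nrpe1 overlapped, as did ddm1nrpd1 and ddm1.

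RSU1, a homolog of ribosomal protein L13 that RefSeq classes as a transcribed pseudogene, was read almost only in the polymerase mutants. It had 53, 68 and 40 counts in ddm1nrpd1 (2.77 ± 0.300 CPM), 66, 59 and 54 counts in ddm1nrpe1 (3.36 ± 0.505 CPM), 2, 2 and 0 counts in ddm1cmt2 and 0 counts in each ddm1 library. No polymerase mutant library overlapped with a library of the other groups. RSU1 passed the filter on low counts only through the polymerase mutants, and was dropped when the ddm1cmt2 and ddm1 libraries were fitted alone. Against the 3 counts over the group that a count of 0 allows in ddm1, RSU1 was at least 25.3-fold higher in ddm1nrpd1 and at least 30.7-fold higher in ddm1nrpe1, and no fold is given for ddm1cmt2. Against the 4 counts of ddm1cmt2 the ratio was 25.6 in ddm1nrpd1 (95% counting interval 9.80 to 95.1) and 31.1 in ddm1nrpe1 (11.95 to 116). Intervals and floors cover counting error only. RSU1 shared with SDC the high level in ddm1nrpd1 and ddm1nrpe1 and the low level in ddm1cmt2 and ddm1, at much lower counts.

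RSU1 overlaps the RefSeq model of AT3G48131, a small protein-coding locus next to it, and the strand setting of the counting is not stated, so reads of these loci cannot be told apart. AT3G48131 had 33, 41 and 24 counts in ddm1nrpd1, 33, 33 and 31 in ddm1nrpe1, 2, 1 and 0 in ddm1cmt2 and 0 in each ddm1 library. It was at least 15.4-fold higher in ddm1nrpd1 and at least 16.7-fold higher in ddm1nrpe1. No p-value is given for it, because its reads may be those of RSU1. Like RSU1, it passed the filter only through the polymerase mutants. Every adjusted p here is from edgeR's quasi-likelihood test, adjusted after Benjamini and Hochberg over the 24839 loci. In the ribosomal protein L13 family, with which RSU1 may share reads, 3 genes were tested. BBC1, an L13 gene, had log2 fold changes of 0.13 in ddm1nrpd1 and 0.04 in ddm1nrpe1 that missed the threshold, and fell by 0.44 in ddm1cmt2 (adjusted p = 0.00606). AT5G23900 had log2 fold changes of 0.10 and 0.08 that missed the threshold in ddm1nrpd1 and ddm1nrpe1, and fell by 0.45 in ddm1cmt2 (adjusted p = 0.00163). AT3G48960 stood apart, with 4, 33 and 3 counts in ddm1nrpd1, 427, 2 and 369 in ddm1nrpe1, 0 in each ddm1cmt2 library and 2, 0 and 0 in ddm1. It was the most variable locus within ddm1nrpe1 of 23241, with a 229-fold range, and its call there (adjusted p = 0.0397) was lost in 10 of 20 alternative settings, over which the adjusted p ran from 8.1e-05 to 0.271.

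AT3G48140, the next gene beyond AT3G48131 and outside its model, differed between genotypes by modest amounts. It had 356, 296 and 286 CPM in ddm1nrpd1, 385, 405 and 343 CPM in ddm1nrpe1, 217, 200 and 234 CPM in ddm1cmt2 and 253, 271 and 276 CPM in ddm1. Every library of the polymerase mutants lay above the ddm1 libraries and every ddm1cmt2 library lay below them. The log2 fold changes were 0.23 ± 0.11 in ddm1nrpd1, 0.50 ± 0.11 in ddm1nrpe1 and -0.30 ± 0.11 in ddm1cmt2. The order of means was ddm1nrpe1 (378 ± 31.4 CPM), ddm1nrpd1 (313 ± 38.0), ddm1 (266 ± 12.3) and ddm1cmt2 (217 ± 16.7), and only ddm1nrpe1 and ddm1nrpd1 overlapped among neighbours in it. RSU1 and AT3G48140 lie 2 steps apart in the RefSeq order.

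PAI1, an isomerase of the tryptophan pathway, had its higher levels in the polymerase mutants and its lowest in ddm1cmt2. It had 17.6, 17.3 and 22.8 CPM in ddm1nrpd1, 23.1, 12.2 and 24.4 CPM in ddm1nrpe1, 10.3, 8.70 and 7.85 CPM in ddm1cmt2 and 12.7, 11.9 and 14.0 CPM in ddm1. All ddm1nrpd1 libraries lay above ddm1 and all ddm1cmt2 libraries below it, while ddm1nrpe1 replicate 2 lay among the ddm1 libraries. The log2 fold changes were 0.57 ± 0.22 in ddm1nrpd1, 0.62 ± 0.22 in ddm1nrpe1 and -0.53 ± 0.24 in ddm1cmt2. The polymerase mutants lay further from ddm1cmt2, by 1.10 ± 0.23 for ddm1nrpd1 and 1.16 ± 0.23 for ddm1nrpe1. The paralogs PAI2 and PAI3 may share reads with PAI1. PAI2 had log2 fold changes of 0.39 ± 0.16 in ddm1nrpd1 (adjusted p = 0.0586), 0.16 ± 0.16 in ddm1nrpe1 (0.437) and 0.20 ± 0.17 in ddm1cmt2 (0.378), and the value in ddm1nrpd1 passed the test without ddm1cmt2 replicate 1 or ddm1 replicate 3 (0.0232 to 0.279 over 21 alternatives). PAI3 rose by 0.61 ± 0.19 on the log2 scale in ddm1nrpe1 (adjusted p = 0.0139), a call lost without ddm1nrpe1 replicate 1 or ddm1 replicate 2 (0.0131 to 0.0616 over 21 alternatives), and its values of 0.38 ± 0.19 in ddm1nrpd1 (0.113) and 0.15 ± 0.20 in ddm1cmt2 (0.614) missed the threshold.

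**Figure D2:**
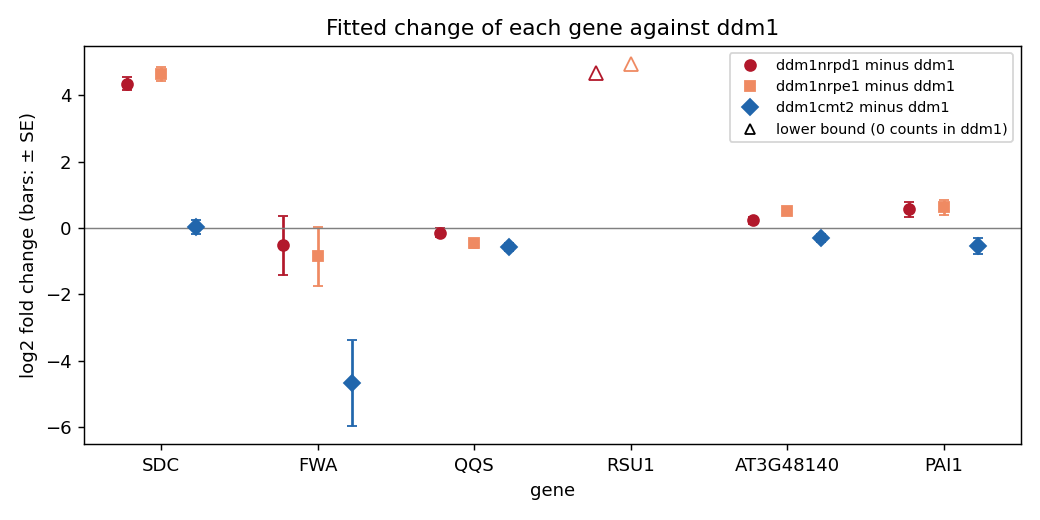
Fitted log2 fold change against ddm1 (vertical axis) of each of the 6 loci (horizontal axis) in ddm1nrpd1, ddm1nrpe1 and ddm1cmt2, with bars of ± 1 SE; open triangles are lower bounds for RSU1, which had 0 counts in ddm1, and no value is drawn for RSU1 in ddm1cmt2. SDC lies at 4.35 and 4.64 in the polymerase mutants and at 0.03 in ddm1cmt2, and the FWA bars are the longest.

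Across the 6 loci, the calls of the fit were set beside those of all loci without being read as a result, since the loci had been chosen with these contrasts known. At an adjusted p under 0.05, ddm1nrpd1 had 2 of 6 called higher (SDC and RSU1), where 22.9% of all tested loci were called higher, and 0 called lower, where 21.7% of all loci were. In ddm1nrpe1, 4 were called higher (SDC, RSU1, AT3G48140 and PAI1), against 26.5% of all loci, and QQS was called lower, against 23.9%. In ddm1cmt2, 0 were called higher, against 18.4%, and 3 were called lower (FWA, QQS and AT3G48140), against 17.7%. Between double mutants, 0 of 6 were called for ddm1nrpd1 minus ddm1nrpe1 (36.1% of all loci), 6 of 6 for ddm1nrpd1 minus ddm1cmt2 (50.5%) and 5 of 6 for ddm1nrpe1 minus ddm1cmt2 (55.1%). The 3 comparisons against ddm1 share the ddm1 libraries. RSU1 entered the fit only through the polymerase mutants, so its direction in them was fixed by the filter.

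Some of these calls depended on single libraries or on the tool. Without ddm1cmt2 replicate 1, ddm1cmt2 replicate 2 or ddm1 replicate 3, only 1 of the 3 calls in ddm1cmt2 was made. The FWA call in ddm1cmt2 was lost on leaving out any ddm1cmt2 library or ddm1 replicate 3, with limma-voom, and with the 6 libraries of the comparison alone. The AT3G48140 call in ddm1cmt2 was lost with any ddm1 library, ddm1cmt2 replicate 1 or 2, ddm1nrpd1 replicate 2 or ddm1nrpe1 replicate 2 left out. The PAI1 call in ddm1nrpe1 was lost with any ddm1 library or ddm1nrpe1 replicate 1 or 3 left out, with upper-quartile factors, with limma-voom and with the 6 libraries alone. PAI1 was called higher in ddm1nrpd1 as well with DESeq2, with the 6 libraries alone and without ddm1nrpe1 replicate 2 or 3, and lower in ddm1cmt2 with the 6 libraries alone and without ddm1nrpe1 replicate 2.

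Other loci known for control by DNA methylation changed in both directions in the polymerase mutants, and those called in ddm1cmt2 rose. The list holds transposons as well as genes: AT2G12210 (CACTA1), AT4G08680 (AtMu1) and AT5G17125 (EVD), classed as pseudogenes by RefSeq, were among those tested. Of 23 listed loci 15 were in the table and 13 were tested; 6 rose and 4 fell in ddm1nrpd1 (median log2 fold change 0.39, against -0.00 over all loci), 4 rose and 3 fell in ddm1nrpe1 (0.16, against 0.01), and 5 rose and 8 did not pass the test in ddm1cmt2 (0.33, against -0.00). Over all loci, 22.9, 26.5 and 18.4% were called higher and 21.7, 23.9 and 17.7% lower in these comparisons. The count in ddm1cmt2 was 3 without ddm1cmt2 replicate 1 or ddm1 replicate 3. The rises in the polymerase mutants include AT4G11170, whose direction there was fixed by the filter, as given below. PUM9, a Pumilio RNA-binding protein, was, like SDC, high in both polymerase mutants: it had 28.1, 19.0 and 20.8 CPM in ddm1nrpd1, 25.6, 34.7 and 30.7 CPM in ddm1nrpe1, 0.505, 0.669 and 0.822 CPM in ddm1cmt2 and 0.988, 0.741 and 1.15 CPM in ddm1. On the log2 scale, on which all rises and falls below are given, it rose by 4.52 ± 0.24 in ddm1nrpd1 and 4.95 ± 0.23 in ddm1nrpe1 (adjusted p = 8.5e-10 and 1.8e-10), and its value of -0.54 ± 0.40 in ddm1cmt2 did not pass the test (adjusted p = 0.324). DML1, the demethylase also called ROS1, fell by 4.01 in ddm1nrpd1 and by 4.20 in ddm1nrpe1.

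The transposon AT2G12210 (CACTA1) fell by 2.99 ± 0.19 in ddm1nrpd1 and by 1.23 ± 0.18 in ddm1nrpe1, and rose by 1.30 ± 0.18 in ddm1cmt2 (adjusted p = 6.9e-05). The transposon AT5G17125 (EVD) averaged 140 ± 19.2 CPM in ddm1nrpd1, 89.1 ± 17.4 in ddm1nrpe1 and 110 ± 51.4 in ddm1cmt2, against 24.4, 1.73 and 20.8 CPM in the ddm1 libraries. It rose by 3.14 ± 0.66 on the log2 scale in ddm1nrpd1, 2.49 ± 0.65 in ddm1nrpe1 and 2.80 ± 0.66 in ddm1cmt2 (adjusted p = 0.00480, 0.0123 and 0.0103). The call in ddm1cmt2 was lost with the 6 libraries of that comparison alone (8.2e-04 to 0.0826 over 21 alternatives). SNC1, an immune receptor, rose by 0.73 ± 0.10 in ddm1cmt2 and fell by 0.38 ± 0.10 in ddm1nrpe1 (adjusted p = 4.5e-05 and 0.00577). IBM1, a histone demethylase that protects genes from methylation, rose in all 3 double mutants, by 0.65 ± 0.11 in ddm1nrpd1, 0.36 ± 0.11 in ddm1nrpe1 and 0.33 ± 0.11 in ddm1cmt2 (adjusted p = 1.8e-04, 0.0119 and 0.0282). Its call in ddm1cmt2 was lost with upper-quartile factors and without any ddm1cmt2 library or ddm1 replicate 1 or 3 (0.0138 to 0.0965 over 21 alternatives). AT4G11170 had log2 fold changes of 4.79 ± 0.75 in ddm1nrpd1 and 4.67 ± 0.76 in ddm1nrpe1. It averaged 4.14 ± 1.67 and 3.93 ± 1.43 CPM there and 0.151 ± 0.166 CPM in ddm1. With 3, 1 and 0 counts in ddm1 and 10, 6 and 18 in ddm1cmt2, it passed the filter on low counts only through the polymerase mutants. Its direction in them was therefore fixed by the filter. BNS (AT1G73177), which codes for a subunit of the anaphase-promoting complex, had 61, 61 and 36 counts in ddm1nrpd1, 43, 18 and 25 in ddm1nrpe1, 12, 17 and 19 in ddm1cmt2 and 13, 11 and 14 in ddm1. It rose by 0.98 ± 0.35 in ddm1nrpd1 (adjusted p = 0.0315), a call lost without ddm1nrpd1 replicate 1 or any ddm1 library and with limma-voom (0.0125 to 0.120 over 21 alternatives), and its values of 0.23 ± 0.37 in ddm1nrpe1 and -0.08 ± 0.40 in ddm1cmt2 missed the threshold.

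Of the other genes of tryptophan synthesis, the pathway of PAI1, most rose in each of the 3 double mutants. Of 10 listed genes, PAI2 and PAI3 among them, 7 rose and 3 did not pass the test in ddm1nrpd1 (median log2 fold change 0.60), the same numbers in ddm1nrpe1 (median 0.88), and 6 rose and 4 did not pass in ddm1cmt2 (median 0.49). Over all loci, 22.9, 26.5 and 18.4% were called higher in these comparisons. The count in ddm1cmt2 was 3 without ddm1cmt2 replicate 3, ddm1 replicate 1 or ddm1 replicate 3. TSA1, the alpha subunit of tryptophan synthase, rose by 1.13 ± 0.18 in ddm1nrpd1 and 1.39 ± 0.18 in ddm1nrpe1, and AT2G04400 rose by 0.89 ± 0.15, 1.29 ± 0.15 and 0.68 ± 0.15 in ddm1nrpd1, ddm1nrpe1 and ddm1cmt2. ASB1, a subunit of anthranilate synthase, rose by 0.95 ± 0.21 in ddm1nrpd1 and 1.30 ± 0.21 in ddm1nrpe1, and TRP1, the transferase one step before PAI1, by 0.57 ± 0.14 and 0.98 ± 0.14. In ddm1cmt2, where PAI1 was lower than in ddm1 in every library, TSB1, a beta subunit of tryptophan synthase, rose by 0.81 ± 0.14 and ASA2, a subunit of anthranilate synthase, by 0.55 ± 0.09.

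**Figure D3:**
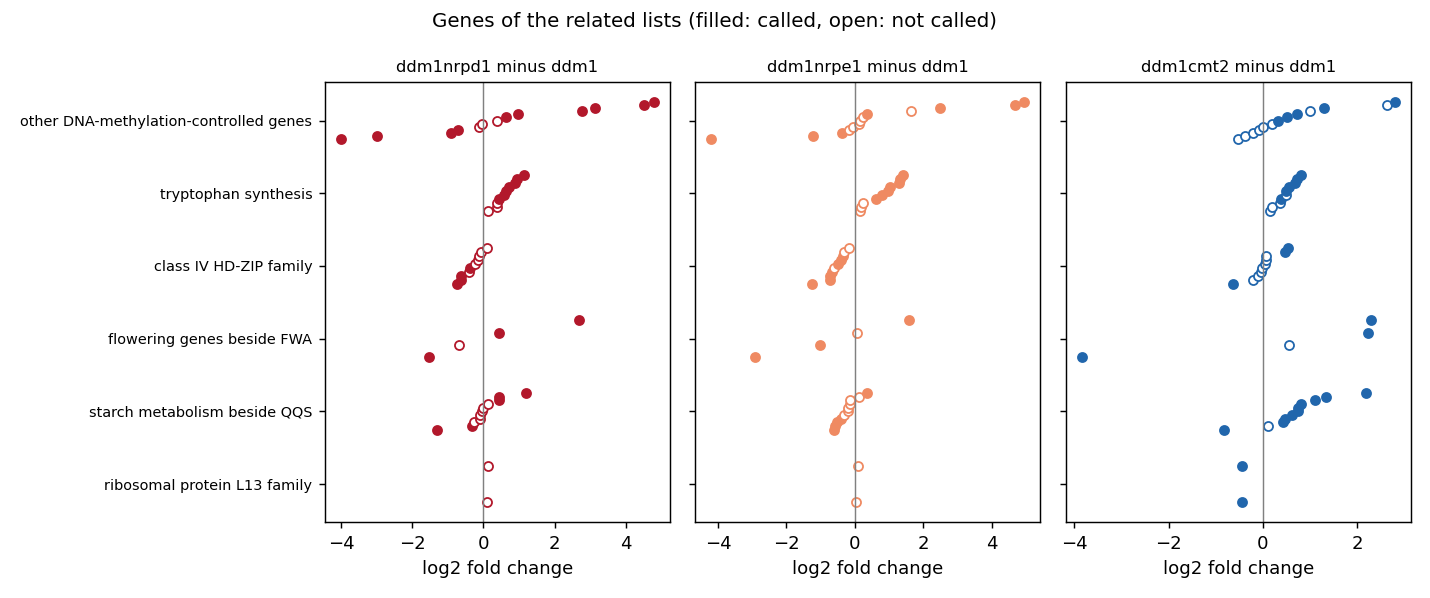
Log2 fold change against ddm1 (horizontal axes) of the tested genes of the 6 related lists (rows) in ddm1nrpd1, ddm1nrpe1 and ddm1cmt2; each point is 1 gene, filled where it was called and open where it was not, and AT3G48960 of the L13 family is left out because its ddm1 libraries hold 2 counts in all. The tryptophan genes lie to the right of 0 in all 3 panels and 9 of 11 starch genes are called higher in ddm1cmt2.

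Among the other members of the class IV HD-ZIP family of FWA, many of which act in epidermal cell fate, those called in the polymerase mutants fell. Of 15 listed genes 10 were tested; 4 fell and 6 did not pass the test in ddm1nrpd1 (median log2 fold change -0.30), 7 fell and 3 did not pass in ddm1nrpe1 (median -0.56), and 2 rose and 1 fell in ddm1cmt2 (median 0.01). Over all loci, 21.7% were called lower in ddm1nrpd1 and 23.9% in ddm1nrpe1, and in ddm1cmt2 18.4% were called higher and 17.7% lower. The count in ddm1nrpd1 was 2 without ddm1 replicate 1, and that in ddm1nrpe1 was 3 without ddm1nrpe1 replicate 1 and 4 without ddm1 replicate 3. HDG1 fell in all 3 double mutants, by 0.63, 0.68 and 0.64 in ddm1nrpd1, ddm1nrpe1 and ddm1cmt2, and ANL2, which acts in anthocyanin and root epidermis development, fell by 0.37 in ddm1nrpd1 and 0.50 in ddm1nrpe1. PDF2 and ATML1, which specify the epidermis, rose by 0.46 and 0.54 in ddm1cmt2. Of the 5 root markers, 4 were lower in the same polymerase mutants and MYB36 was not called, as given above. The part of the root markers in these changes was not tested.

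Of the flowering genes that FWA is known to act beside, 4 of 7 were tested; 2 rose and 1 fell in ddm1nrpd1 (median log2 fold change -0.13), 1 rose and 2 fell in ddm1nrpe1 (median -0.48), with 1 call without ddm1nrpe1 replicate 3, and 2 rose and 1 fell in ddm1cmt2 (median 1.39). Over all loci, 22.9, 26.5 and 18.4% were called higher and 21.7, 23.9 and 17.7% lower in the 3 comparisons. FT, the mobile flowering signal, rose by 2.69 ± 0.44 in ddm1nrpd1 (adjusted p = 1.7e-04) and 2.30 ± 0.48 in ddm1cmt2 (0.00147). Its rise of 1.57 ± 0.50 in ddm1nrpe1 (0.0159) was lost without ddm1nrpe1 replicate 3 or ddm1 replicate 3 (0.0134 to 0.0873 over 21 alternatives), and FT stayed at low levels, 2.13 ± 0.571 CPM in ddm1nrpd1 and 0.339 ± 0.151 CPM in ddm1. AGL20, also called SOC1, a flowering activator downstream of FT, rose by 0.44 ± 0.12 in ddm1nrpd1 and 2.23 ± 0.12 in ddm1cmt2, where it averaged 84.2 ± 6.59 CPM, against 17.9 ± 1.99 CPM in ddm1. CO, the activator of FT in long days, fell by 1.53, 2.91 and 3.85 in ddm1nrpd1, ddm1nrpe1 and ddm1cmt2. FWA itself was at 1.26 ± 0.725 CPM in ddm1cmt2, its lowest group, and at 20.6 ± 5.86 CPM in ddm1nrpd1, where FT was highest. The part of FWA in these changes was not tested.

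Among genes of starch metabolism, listed for QQS, most rose in ddm1cmt2. Of 11 tested genes, 3 rose and 2 fell in ddm1nrpd1 (median -0.04), 1 rose and 4 fell in ddm1nrpe1 (median -0.21), and 9 rose and 1 fell in ddm1cmt2 (median 0.73). The counts in ddm1nrpd1 were near the shares over all loci, 22.9% higher and 21.7% lower. In ddm1nrpe1 those shares were 26.5% higher and 23.9% lower, and in ddm1cmt2 18.4% higher and 17.7% lower. SEX1, which phosphorylates starch for its breakdown, rose by 2.18 ± 0.12 in ddm1cmt2, to 393 ± 47.0 CPM, against 87.0 ± 5.97 CPM in ddm1. The starch synthases SS1 and SS4 rose there by 1.35 ± 0.11 and 1.10 ± 0.12, and SBE2.1, a branching enzyme, by 0.73 ± 0.10. The summed leaf markers were also highest in ddm1cmt2, at 39512 to 44586 CPM, against 28713 to 31217 CPM in ddm1. Of the leaf markers, CAB1 (mean 16815 CPM in ddm1cmt2 against 8505 in ddm1) and LHCB5 (6351 against 3187) were called higher there. RBCS1A (16392 against 15778) and CA1 (2837 against 2721) were not called. The part of the leaf markers in the starch gene changes was not tested. GBSS1, which makes amylose, rose by 1.20 ± 0.16 in ddm1nrpd1. NF-YC4, the transcription factor subunit that the QQS protein binds, fell by 1.31 ± 0.13 in ddm1nrpd1 (adjusted p = 1.1e-06) and by 0.41 ± 0.12 in ddm1nrpe1 (adjusted p = 0.0134); the call in ddm1nrpe1 was lost without ddm1nrpe1 replicate 1 (0.00291 to 0.0699 over 21 alternatives).

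The loci beside each gene were read in the same fit, taking 3 on each side in identifier order. Of 31 such loci 30 were tested; 5 rose and 3 fell in ddm1nrpd1, 8 rose and 4 fell in ddm1nrpe1, and 4 rose and 4 fell in ddm1cmt2, with medians of 0.05, -0.03 and 0.07. Among all tested loci, 22.9, 26.5 and 18.4% were called higher and 21.7, 23.9 and 17.7% lower in the same comparisons. The counts of neighbours stood near or below these shares and are not read as a result. The loci that rose in both polymerase mutants include AT3G48131, AT3G30721 and AT3G30722, which passed the filter only through those mutants. Their direction there was fixed by the filter, and the reads of AT3G48131 may be those of RSU1. Loci beside SDC did not reach its size of change. AT2G17650 fell by 0.82 in ddm1nrpd1 and 1.56 in ddm1nrpe1, AT2G17670 fell by 0.50 in ddm1nrpe1 (lost without ddm1nrpe1 replicate 2) and 0.97 in ddm1cmt2, and AT2G17695 rose by 0.58 in ddm1nrpe1 and 1.11 in ddm1cmt2. STY8, a protein kinase, rose by 0.66 in ddm1cmt2, and the rise of AT2G17705 by 0.46 in ddm1nrpe1 was lost in 16 of 21 alternatives (adjusted p of 0.0142 to 0.218). Beside FWA, only SLK1 was called, a transcriptional adaptor that rose by 0.59 in ddm1cmt2.

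The 6 loci beside QQS are all classed as pseudogenes by RefSeq, unlike most loci beside the other genes. In ddm1nrpd1 4 rose and 1 fell, where 22.9% of all loci were called higher and 21.7% lower. In ddm1nrpe1 3 rose, where 26.5% of all loci were called higher. AT3G30713, directly before QQS in identifier order, had log2 fold changes of 0.22 ± 0.26 in ddm1nrpd1 and -0.34 ± 0.26 in ddm1nrpe1 that missed the threshold. AT3G30722, a pseudogene that directly follows QQS in the RefSeq order without overlap, had 7.30 ± 1.90 CPM in ddm1nrpd1, 3.15 ± 0.723 CPM in ddm1nrpe1, 0.668 ± 0.220 CPM in ddm1cmt2 and 0.544 ± 0.0934 CPM in ddm1. Its log2 fold changes were 3.74 ± 0.33 in ddm1nrpd1 and 2.51 ± 0.36 in ddm1nrpe1. The next pseudogene, AT3G30721, had log2 fold changes of 3.63 ± 0.46 and 2.42 ± 0.52 in the same groups. In ddm1, AT3G30722 had 4, 5 and 6 counts and AT3G30721 had 1, 4 and 3. Both passed the filter on low counts only through the polymerase mutants. Their direction there was therefore fixed by the filter, and no p-value is given for them. Both are counted among the risen loci above. On the other side AT3G30703 rose by 2.23 ± 0.25 in ddm1nrpd1 and 3.87 ± 0.23 in ddm1nrpe1, whereas AT3G30710 fell by 1.02 ± 0.20 in ddm1nrpd1. AT3G30743 rose by 0.91 ± 0.25 in ddm1nrpd1. In ddm1cmt2 the 6 loci beside QQS had log2 fold changes of -0.19 to 0.72, which did not pass the test.

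Around RSU1 and AT3G48140, other than AT3G48131, the called loci changed by less than 1 log2 unit. AT3G48115 fell by 0.90 in ddm1cmt2, DEL1, a repressor of the endocycle, fell by 0.90 in ddm1nrpe1 (lost without ddm1 replicate 3), and ALDH10A9, an aldehyde dehydrogenase, rose by 0.39 in ddm1nrpe1. Beside PAI1, ECA1, a calcium pump, fell by 0.42 in ddm1nrpd1 and by 0.30 in ddm1cmt2. HTB1, a histone gene, fell by 0.42 in ddm1nrpe1 and rose by 0.45 in ddm1cmt2, and RPS15A, a ribosomal protein gene, rose by 0.33 in ddm1nrpe1 and fell by 0.32 in ddm1cmt2. In ddm1cmt2 these 3 calls were each lost on leaving out some single libraries, with adjusted p of up to 0.149 for ECA1, 0.115 for HTB1 and 0.161 for RPS15A, as were those of HTB1 and RPS15A in ddm1nrpe1, with up to 0.104 and 0.0779 (the RPS15A call there also with upper-quartile factors).

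**Figure D4:**
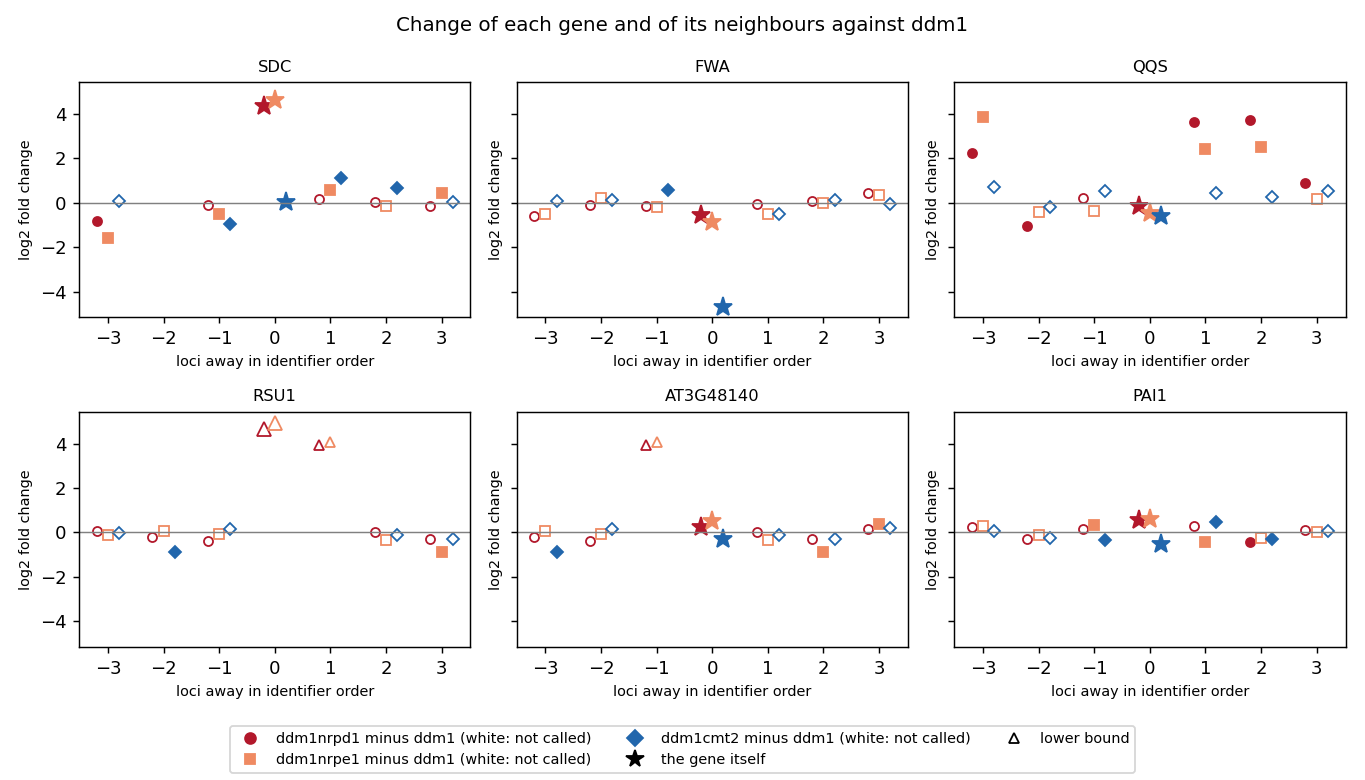
Log2 fold change against ddm1 (vertical axes, shared scale) of each of the 6 loci (stars) and of the tested loci up to 3 steps away in identifier order (horizontal axes) in ddm1nrpd1, ddm1nrpe1 and ddm1cmt2. White symbols were not called and open triangles are lower bounds for RSU1 and AT3G48131. SDC lies at 4.35 and 4.64 in the polymerase mutants, far above its neighbours. QQS lies near 0 beside pseudogenes at 3.63 and 3.74 in ddm1nrpd1, which passed the filter only through the polymerase mutants.

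The loci whose pattern over the 12 libraries was most like each gene were found by the root mean square difference of log2 CPM, each locus centred on its own mean, among 23544 loci with a mean of at least 1 CPM. SDC, with a spread of 2.26 around its mean, was followed most closely by the transposon locus AT1TE51990 (0.32), the pseudogenes AT1G36720 (0.33) and AT1G36305 (0.37) and the transposon loci AT3TE57785 and AT1TE52795 (both 0.38). AT1G36720, for example, had 73.9 and 87.8 CPM in ddm1nrpd1 and ddm1nrpe1, 4.11 CPM in ddm1cmt2 and 4.56 CPM in ddm1. RSU1, with a spread of 2.96, was nearest to AT3TE51895 (0.80), the pseudogenes AT5G33252 (0.81), AT3G30844 (0.83) and AT4G17820 (0.84), and AT2TE00010 (0.91). With 0 counts in ddm1 and 4 in ddm1cmt2, its log2 levels there depended on the small count added before taking logs. The spread of RSU1 and its distances depended on that added count as well. FWA had no close match, the nearest being AT3TE43605 at 1.26 for a spread of 2.15.

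The remaining 3 genes had small spreads, and their nearest loci were mostly protein-coding. QQS was nearest to AT5G47620 (0.11), the pseudogene AT3G46183 (0.12), AT2G05915, BRG3 and the response regulator gene RR3 (each 0.13), for a spread of 0.27. AT3G48140 was nearest to AT4G26710 (0.06), NUDT16 (0.07), ARA4, AT1G18210 (both 0.08) and RS31 (0.09), for a spread of 0.31. PAI1 was nearest to AT4G13400 (0.23), AT1G71430 (0.24), PRMT10, CKX7 and AT1G27400 (each 0.25), for a spread of 0.52. Among the 6 loci themselves, SDC and RSU1 were 1.14 apart, below the spread of either, a distance that depended on the same added count. SDC and FWA were 2.06 apart, also below the spread of either (2.26 and 2.15). QQS and AT3G48140 were 0.38 apart, above the spread of either.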

How the data were processed

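The authors deposited 1 table of raw read counts per locus for the 12 RNA libraries, with CPM values beside them; checked against the counts, the deposited CPM are each count over its library's total, so they were not used for tests. The submitters' processing notes name the build TAIR10 and the tools HTSeq, TopHat, Trimmomatic, Bowtie2, edgeR, SAMtools, Picard, deepTools and BSMAP. Roles, versions, strand setting and the handling of multiply matching reads: not given in the sources used here. The other 30 samples were not analysed here. Names come from a RefSeq table of assembly TAIR10.1, used for names, classes and order only; it holds 22869 of the 22968 loci with a gene identifier. Its order, not its coordinates, is used.

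The members and the gene lists were chosen with earlier results of these data known. The count table was fitted with edgeR 4.0.16 (R 4.3.3): filterByExpr on the 4 groups (24839 loci), TMM scaling, 1 model of group means over 12 libraries (8 residual degrees of freedom), robust quasi-likelihood dispersions, and p-values adjusted after Benjamini and Hochberg across these loci, called under 0.05. A standard error is the log2 fold change over the square root of F. A fold against 0 counts is a lower bound from a floor of 3 counts over the group, and count ratios carry exact binomial intervals. Genes named are all members, up to 4 per list and comparison by smallest adjusted p, every paralog and BNS, the called neighbours, and 5 loci per member by likeness. The steps were tested on simulated data. Alternatives were RLE, upper-quartile and transposon- and organelle-free TMM factors, limma-voom from limma 3.58.1, DESeq2 1.42.0, a fit with no filter, CPM of 1 in 3 libraries, the replicate block, the 6 libraries of a comparison alone and each library left out in turn.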

Additional observations from a re-analysis of the deposited data

How the results depend on the processing

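Over 21 alternatives the SDC change in both polymerase mutants kept its direction and its side of the threshold, as did the QQS changes in ddm1nrpe1 and ddm1cmt2, and no called value of the 6 loci changed sign. As the 6 loci were chosen with these contrasts known, this stability describes the fit and is no test of the loci. Other calls depended on single libraries or on the tool. With 1 library left out, the calls among the 6 loci ran from 1 to 3 in ddm1cmt2, and the lower bound of RSU1 on the log2 scale ran from 3.98 to 4.72 in ddm1nrpd1 and from 4.24 to 5.04 in ddm1nrpe1, being lower without a ddm1 library because fewer ddm1 reads raise the floor. On the same omissions the calls ran from 2 to 4 (ddm1nrpd1) and 3 to 8 (ddm1nrpe1) in the HD-ZIP list, from 1 to 3 in the flowering list in ddm1nrpe1, from 0 to 1 in the L13 family in ddm1nrpe1, and in ddm1cmt2 from 3 to 6 in the list of methylation-controlled genes and from 3 to 7 in the tryptophan list. With limma-voom, the replicate block or the 6 libraries alone, the L13 family had 0 calls in ddm1nrpe1, and with the 6 libraries alone 3 methylation-controlled genes were called in ddm1cmt2; the cause was not tested. With limma-voom the FWA change was 0.87 in ddm1nrpd1 and 0.57 in ddm1nrpe1, opposite in sign to the fit reported. Replicate numbers did not pair the samples (18 same-number pairs, r = -0.288 to 0.197, 3 of them over 0.1), and the paired fit with the replicate block lost the AT3G48140 call in ddm1cmt2 and added the PAI1 call in ddm1nrpd1. Depth limits RSU1, with 4 counts in ddm1cmt2 and 0 in ddm1, and 3 libraries a group limit every standard error.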
